A study of Mus musculus with 10 samples.

Results

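The 9 smooth muscle contractile genes Acta2, Tagln, Myl9, Myh11, Mylk, Tpm1, Tpm2, Cnn1 and Des were taken from the UMI count table by their symbols, and all 9 were found among the 14623 genes of the table. The stromal vascular fraction (SVF), the cells of fat other than adipocytes, was isolated from inguinal white adipose tissue (iWAT) of lean mice, 7 weeks old, and was profiled with Seq-Well S3, which pairs cells with barcoded beads in small wells and counts transcripts by unique molecular identifiers (UMIs). Bbs8 KO mice (Bbs8-/-) lack Bbs8, listed as Ttc8, a subunit of the BBSome that moves cargo in primary cilia, and Bbs8 WT mice (Bbs8+/+) are the controls. The series text names 1 mouse per genotype, so no comparison between the genotypes has a replicate check, and intervals below cover counting error only. Ttc8 had no UMI in Bbs8 KO cells, whereas 3 Bbs8 WT cells of 1 set held 5 UMIs. The table held 8985 cells of Bbs8 KO, 1929 of Bbs8 WT, in 10 barcode sets, 5 per genotype, whose codes the labels do not explain, with a median of 251 and 278 UMIs per cell.

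Smooth muscle contracts when myosin light chain kinase, after a calcium signal, phosphorylates the regulatory light chains of smooth muscle myosin, which then pulls on actin filaments. In fat, these genes are known from mural cells, the smooth muscle cells and pericytes around vessels. They are also used by the myoepithelial (basal) cells of the mammary gland, which lies within the inguinal depot of mice, and by myofibroblasts, the matrix-producing cells of fibrosis. The first group of genes forms the thin filament: Acta2 encodes smooth muscle alpha-actin, Tpm1 and Tpm2 encode tropomyosins, Cnn1 encodes calponin and Tagln encodes transgelin, which binds actin. The second group forms the motor, with Myh11 for the smooth muscle myosin heavy chain, Myl9 for a regulatory light chain and Mylk for the kinase that phosphorylates it. Des encodes the intermediate filament protein desmin.

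Many promoters of contractile genes are known to hold a CArG box, the site of serum response factor, so the promoters were searched on both strands for its strict form, CC, then 6 bases that are each A or T, then GG, with no mismatch allowed. Windows from 250 bases before to 50 bases after the transcription start were taken from RefSeq (GRCm38.p6). The windows at hand covered 7 of the 9 genes. None was at hand for Tagln or Myh11, which does not mean that RefSeq lacks these genes. This strict form lay in 1 of the 7 windows, that of Myl9, at -161 from the start, and in 1.63% of all 32851 windows searched. The Myl9 window (chr2:156775214-156775513, plus strand) is shown with the box in capitals, beside that of Acta2 (chr19:34255324-34255623, minus strand), as the most used marker of the group. The Acta2 promoter is known for CArG boxes that depart from the strict form, which this search does not find, so the lack of capitals there says nothing of them.
Myl9: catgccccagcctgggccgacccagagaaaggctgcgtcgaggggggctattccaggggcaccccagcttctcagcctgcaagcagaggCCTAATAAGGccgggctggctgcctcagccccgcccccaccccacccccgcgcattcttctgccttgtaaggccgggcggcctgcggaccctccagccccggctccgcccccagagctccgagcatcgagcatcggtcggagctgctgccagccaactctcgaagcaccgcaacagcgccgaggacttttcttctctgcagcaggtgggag
Acta2: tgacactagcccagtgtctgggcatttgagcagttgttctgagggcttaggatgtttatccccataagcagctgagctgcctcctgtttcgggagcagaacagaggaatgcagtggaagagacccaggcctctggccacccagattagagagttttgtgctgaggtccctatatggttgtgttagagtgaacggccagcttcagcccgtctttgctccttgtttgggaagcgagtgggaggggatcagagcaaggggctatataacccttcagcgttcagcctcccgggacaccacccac
In the GENCODE annotation of GRCm38, Acta2 (ENSMUSG00000035783) lies on chr19:34241090-34255590, Myh11 on chr16:14194535-14291372 and Cnn1 on chr9:22099216-22109630. The absence of a match says only that the letters were not in this window.

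Cells were clustered without the 9 genes, so that their levels played no part in forming the classes, and clusters were named from other markers. The mural-like class was led, apart from the contractile genes, by Rgs5, Notch3, Gucy1b3 and Abcc9, and held 150 cells. Of the mural markers, Ndufa4l2 and Cox4i2 had no UMI in any cell of the table. Endothelial markers were also above other cells in this class, with a mean log2 fold of 1.29 against 2.64 for the mural list. All 10 were found in Bbs8 KO mural-like cells, at 2851 CPM (2474 to 3269), and 6 of 10 in those of Bbs8 WT, at 2083 CPM (1320 to 3125), and their part in the comparisons of the class was not tested. The epithelial-like class, led by Krt19, Krt18 and Wfdc18, held 69 cells of each genotype, which was 0.768% (95% interval 0.598 to 0.971) of Bbs8 KO against 3.58% (2.79 to 4.51) of Bbs8 WT cells. Mural-like cells were 1.4% (1.17 to 1.67) of Bbs8 KO against 1.24% (0.799 to 1.85) of Bbs8 WT cells, 126 and 24 cells. The stromal adipocyte precursors fell into P1-like, P2-like and P3-like classes with 1156 Bbs8 KO against 502 Bbs8 WT cells together. A second vascular cluster, led by Vwf but also by Rgs5, is called Vwf-led endothelial-like. Clusters without a clear name held 39.2% of Bbs8 KO against 31.9% of Bbs8 WT cells. In Bbs8 KO, 1 set gave 736 of the 739 cells of unnamed cluster 6, and 1 set gave 239 of the 242 cells of unnamed cluster 12.

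Contractile transcripts were most concentrated in mural-like cells. Levels are given as CPM, the UMIs of a gene divided by all UMIs of the class and multiplied by 1000000. Over both mice, Myh11 reached 1784 CPM in mural-like cells against 62.2 CPM in all other cells, and Acta2 reached 964 CPM against 44.2 CPM. Myl9 stood at 844 against 36.3 CPM, Mylk at 651 against 32.3 CPM and Tpm2 at 784 against 42.6 CPM. All 7 members with at least 50 UMIs in the table were at least 4-fold higher in mural-like than in other cells, a size that 1.38% of the 8776 genes with as many UMIs reached. Tpm1, which many non-muscle cells also use, differed least of these, by 2.71 on the log2 scale of CPM + 5, from 140 CPM in other cells. Des, with 42 UMIs in all, had 193 CPM in mural-like and 6.88 CPM in other cells. Cnn1 had 0 of its 23 UMIs in mural-like cells, but all 23 were of Bbs8 WT, which had 24 mural-like cells. The interval of its log2 ratio reached up to 2.99, so this 0 does not exclude a 4-fold higher level there.

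**Figure D1:**
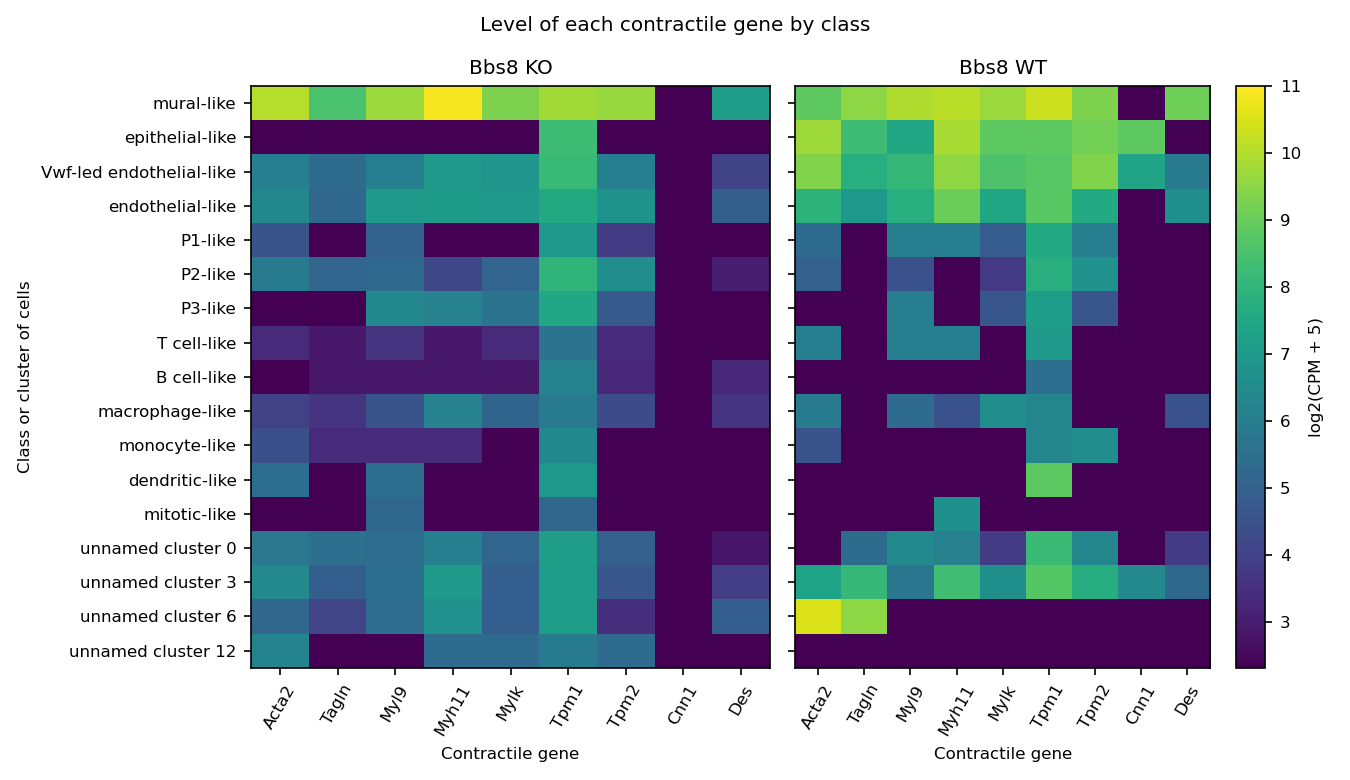
Level of each contractile gene (columns) in each class or cluster of cells (rows), as log2(CPM + 5), in Bbs8 KO (left) and Bbs8 WT (right). The mural-like row is high in both genotypes except for Cnn1. The epithelial-like row is high in Bbs8 WT except for Des, which has no UMI there, and holds Tpm1 alone in Bbs8 KO. Unnamed cluster 6 holds only 7 Bbs8 WT cells.

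Within mural-like cells, detection per cell was sparse. A UMI of any member was found in 63.5% (54.4 to 71.9) of the Bbs8 KO against 79.2% (57.8 to 92.9) of the Bbs8 WT mural-like cells. After each cell was thinned to 200 UMIs, which left out 14 of the Bbs8 KO cells and 3 of the others, the shares were 42.9% (33.5 to 52.6) and 66.7% (43 to 85.4). For comparison, T and B cell-like cells, which should lack most of these genes, had a member UMI in 2.46% of Bbs8 KO against 2.9% of Bbs8 WT cells. Tpm1, which many non-muscle cells also use, was found in 1.76% and 1.93% of them. Their medians were 270 and 234 UMIs per cell, where mural-like cells had 522 and 385.5. At least 3 members were found together in 44 of 150 mural-like cells, and up to 8 in a single cell. To separate pericytes from smooth muscle cells, 7 pericyte genes led by Rgs5, Kcnj8 and Abcc9 were set against Acta2, Tagln, Myh11 and Cnn1. Of these genes, Ndufa4l2 and Cox4i2 on the pericyte side had no UMI in any cell, and Cnn1 had none in mural-like cells. Of the 150 cells, 54 had a UMI of the pericyte genes alone, 19 of the smooth muscle genes alone, 36 of both and 41 of neither.

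The summed members had 6577 CPM (5998 to 7197) in Bbs8 KO against 6521 CPM (5102 to 8212) in Bbs8 WT mural-like cells. These levels moved with the class: they were 11935 and 9911 CPM with the members among the clustering features and 3492 and 4650 CPM with the mixed vascular cluster not divided, and Bbs8 WT had 4079 CPM in cells called from their own markers and 10837 CPM without the barcode set WT4_p2. The log2 ratio of Bbs8 KO over Bbs8 WT was 0.01 (-0.35 to 0.39). Its direction depended on how the class was defined, on the libraries and on the scaling. It was 0.53 (0.16 to 0.93) in cells called from their own markers and -0.41 (-0.69 to -0.13) with the mixed vascular cluster not divided. It was -0.72 without the barcode set WT4_p2, which held 13 of the 24 Bbs8 WT cells, and 0.87 with TMM scaling, which shifted all genes of the class by 0.86. Of the 6 members with at least 50 UMIs in the class, 1 was past 2-fold, Acta2, against 10.7% of the 121 genes compared. Acta2 had 75 UMIs (1043 CPM, 820 to 1307) in Bbs8 KO against 5 UMIs (453 CPM, 147 to 1057) in Bbs8 WT, with a log2 ratio of 1.19 (-0.08 to 2.87), so that the interval included no difference. With the mixed vascular cluster not divided, the log2 ratio of Acta2 was -0.13 (-0.90 to 0.72), so the call and its direction rested on that division, which was made after the clusters were seen. By set, Acta2 had 9, 9, 2, 33 and 22 UMIs in the Bbs8 KO mural-like cells against 2, 0, 0, 3 and 0 in those of Bbs8 WT, and in CPM the sets of the genotypes overlapped. Myh11 had 136 UMIs (1891 CPM, 1587 to 2237) in Bbs8 KO against 12 UMIs (1087 CPM, 562 to 1898) in Bbs8 WT. Des had 10 UMIs (139 CPM, 66.7 to 256) in Bbs8 KO against 6 UMIs (543 CPM, 199 to 1183) in Bbs8 WT, and 5 of these 6 came from WT4_p2. Its log2 ratio was -1.93 (-3.57 to -0.22), and ran from -2.29 to -0.84 with 1 set left out. The log2 ratios of Tagln, Myl9, Myh11, Mylk, Tpm1 and Tpm2 lay between -0.99 for Tagln and 0.80 for Myh11, each with an interval that included 0. Leaving out WT4_p2 turned Myh11 to -0.41 and Tpm2, otherwise 0.34, to -0.90, and leaving out WT3_p1 gave 2.00 for Myh11. Without WT4_p2, Tpm1 went from -0.51 to -1.63 (-2.57 to -0.57), an interval that excluded 0, and Tagln ran as low as -2.05 with 1 set left out. No direction is given for these 6 members. The sets of the genotypes overlapped for all of these members, where 0.826% of the genes compared in the class had sets that did not.

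The summed members differed more between the genotypes in epithelial-like cells than in mural-like or stromal cells. The summed members had 8 UMIs in the 69 Bbs8 KO cells, all of them Tpm1, and 139 UMIs in the 69 Bbs8 WT cells, which was 311 CPM (134 to 614) and 4175 CPM (3510 to 4930), with a log2 ratio of -3.72 (-4.99 to -2.73). With a naming threshold of 0.5 the log2 ratio was -2.48 (-2.85 to -2.15) and Bbs8 WT had 2508 CPM. By set, the Bbs8 KO cells had 0, 430, 387, 0 and 645 CPM and the Bbs8 WT cells 1839, 3965, 3065, 5904 and 5330 CPM, so each Bbs8 WT set lay above every Bbs8 KO set. Acta2, Tagln and Mylk did the same as single genes. A UMI of any member was found in 7 of 69 Bbs8 KO cells, 10.1% (4.18 to 19.8), against 48 of 69 Bbs8 WT cells, 69.6% (57.3 to 80.1), and thinning to 200 UMIs gave 5.45% and 51.6%. The medians were 271 and 390 UMIs per cell. No member had 50 UMIs in this class. Of the 68 genes that did, 30.9% were past 2-fold and 10.3% had sets that did not overlap between genotypes, so differences were common in it.

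Acta2 had 2, 6, 6, 11 and 3 UMIs in the epithelial-like cells of the 5 Bbs8 WT sets and 0 in all Bbs8 KO sets. It stood at 841 CPM (559 to 1216) in Bbs8 WT, at least 7.2-fold higher than the limit of 3 counts over the group allows in Bbs8 KO. Myh11 had 0, 6, 8, 13 and 4 UMIs in the Bbs8 WT sets and was at least 7.97-fold higher on the same scale. Tpm2 was at least 4.89-fold, Mylk at least 3.86-fold and Tagln at least 2.57-fold higher in Bbs8 WT. Myl9 had 6 UMIs in Bbs8 WT, at 180 CPM (66.1 to 392), an interval that includes the limit of 117 CPM in Bbs8 KO, so no fold is given. These bounds take the Bbs8 WT level as measured, without its counting error, and hold for this class as named: with a naming threshold of 0.5, which takes in unnamed cluster 3, the log2 ratios were -2.39 (-3.42 to -1.60) for Acta2 and -2.26 (-3.08 to -1.59) for Myh11. Tpm1 was found in both, at 311 CPM in Bbs8 KO against 451 CPM in Bbs8 WT, with a log2 ratio of -0.53 (-1.98 to 0.80). Des was at 0 in the epithelial-like cells of both genotypes.

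**Figure D2:**
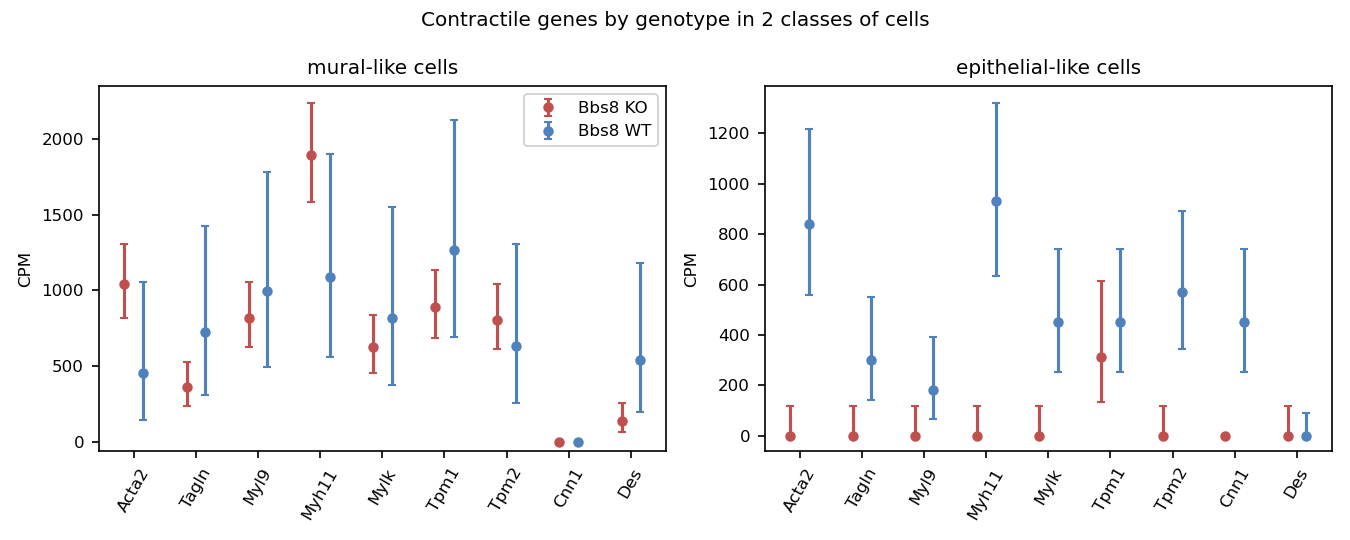
CPM of each contractile gene in mural-like (left) and epithelial-like (right) cells of Bbs8 KO (red) and Bbs8 WT (blue). Points are values per mouse and bars are exact Poisson 95% intervals, or the limit of 3 counts at 0, which is not drawn for Cnn1; in the epithelial-like cells all genes but Tpm1 are at 0 in Bbs8 KO, and Des is at 0 in both.

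Keratins of the luminal and basal layers were then compared in the same cells. The luminal list summed to 11561 CPM in Bbs8 KO against 13517 CPM in Bbs8 WT epithelial-like cells, but its genes differed in both directions. Krt19 was higher in Bbs8 KO, at 5099 CPM (4264 to 6051) against 1442 CPM (1063 to 1912) in Bbs8 WT. Krt18 stood at 3114 (2469 to 3876) and 1952 CPM (1507 to 2489) and Krt8 at 1557 (1112 to 2120) and 871 CPM (583 to 1251), with intervals that overlapped. The sets of the genotypes overlapped for each of these keratins. Wfdc18, a milk protein gene, was at 311 and 6608 CPM. The caseins Csn2 and Csn3 had 1682 and 1262 CPM in Bbs8 WT and no UMI in any Bbs8 KO cell. All 4 basal markers, Krt14, Krt5, Krt17 and Oxtr, were found in Bbs8 WT, with 25 UMIs (751 CPM, 486 to 1109), and all 4 were at 0 in Bbs8 KO. They had no UMI in any other Bbs8 KO cell either, and Krt5 and Krt17 were found in 1 Bbs8 WT set each within the class, so a 0 here may stand for a few cells, as for Cnn1. A basal UMI was found in 16 of the 69 Bbs8 WT cells, and 14 of these 16 also had a contractile UMI. Contractile UMIs were likewise found in 34 of the 53 Bbs8 WT cells without a basal UMI, at 3894 CPM against 4947 CPM in those with it. At least 2 members were found together in 26 of the 69 Bbs8 WT cells and in 0 of the 69 Bbs8 KO cells, which had fewer UMIs per cell, so the 0 is a count of detections and no limit on the cells that express such a pair. The defining mural markers Notch3, Abcc9 and Cspg4 were at 0 in the epithelial-like cells of both genotypes, and the whole mural list of 14 genes had 156 CPM in Bbs8 KO against 90.1 CPM in Bbs8 WT. Stromal markers stood at 6579 CPM in the Bbs8 KO against 2523 CPM in the Bbs8 WT epithelial-like cells, and B cell markers at 1129 and 180 CPM. Their part in the difference was not tested.

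Cnn1 had no UMI in the mural-like cells, of which 24 were of Bbs8 WT. It had 23 UMIs in 17 cells, all of Bbs8 WT, with 0, 7, 3, 11 and 2 UMIs in the 5 sets, and 0 UMIs in each of the 5 Bbs8 KO sets. Of these, 15 UMIs in 11 cells were in the epithelial-like class, 5 UMIs in 4 cells in unnamed cluster 3 and 3 UMIs in 2 cells in the Vwf-led cluster. A UMI of the epithelial list was found in 13 of the 17 cells and one of the mural list in 1. Within each barcode set, fewer genes were found in 1 or in 2 cells than in 3 cells (87, 503 and 1327 genes in WT3_p1), a pattern that a minimum number of cells per set would leave. A 0 in a whole set may therefore stand for a few cells, and no fold or limit is given for Cnn1.

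The mice differed in which cells held the contractile transcripts. Mural-like cells held 34.4% (31.9 to 37) of the 1376 member UMIs of Bbs8 KO against 11% (8.69 to 13.6) of the 656 of Bbs8 WT. The Bbs8 WT share was 18% with the members among the clustering features and 21% with the vascular cluster undivided, where that of Bbs8 KO was 40.04% and 38.8%. Epithelial-like cells held 0.581% (0.251 to 1.14) and 21.2% (18.1 to 24.5), or 7.27% and 36.7% with the naming threshold of 0.5. With the members among the features they held 1.6% and 30.2%. In endothelial-like cells, the summed members had 796 CPM in Bbs8 KO against 1992 CPM in Bbs8 WT. The Vwf-led cluster had 753 CPM (576 to 967) of the summed members in Bbs8 KO against 3541 CPM (2739 to 4505) in Bbs8 WT. Mural markers in that cluster stood at 1259 and 2254 CPM and epithelial markers at 49.4 and 376 CPM, so markers of both classes were higher there in Bbs8 WT. Unnamed cluster 3, led by Fcgbp and the caseins, had 462 CPM (372 to 567) in Bbs8 KO against 1624 CPM (1324 to 1972) in Bbs8 WT, and its epithelial markers stood at 276 and 3249 CPM. The part of these cells in the differences was not tested.

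**Figure D3:**
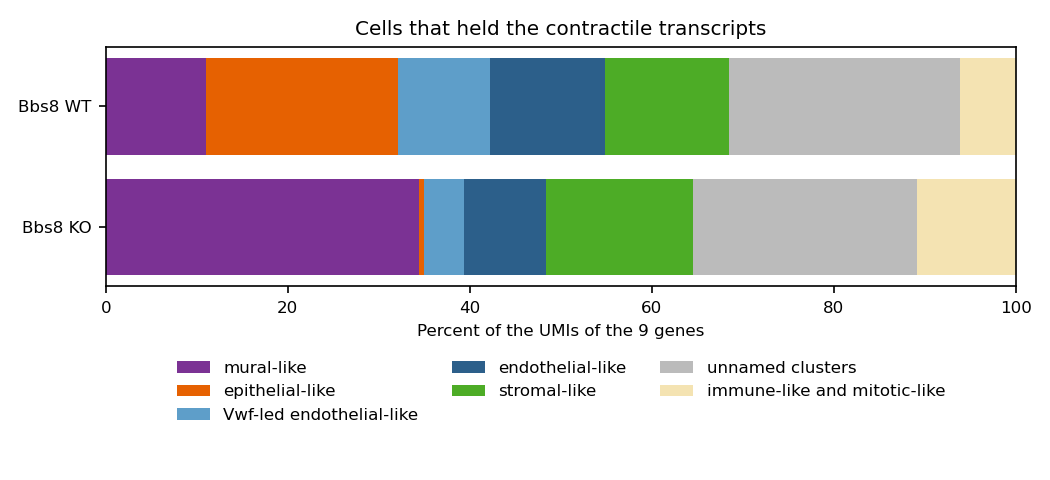
Share of all UMIs of the 9 contractile genes held by each class of cells, in percent, for Bbs8 WT (top) and Bbs8 KO (bottom). The mural-like part is 34.4% in Bbs8 KO against 11% in Bbs8 WT, and the epithelial-like part is 0.581% and 21.2%.

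Over all cells, the sum of the members was lower in Bbs8 KO. The summed members had 438 CPM (415 to 461) in Bbs8 KO against 916 CPM (847 to 989) in Bbs8 WT, with a log2 ratio of -1.06 (-1.20 to -0.93), where the median of the 8776 genes compared was 0.18. Leaving out the epithelial-like cells gave 439 and 757 CPM and a log2 ratio of -0.78 (-0.93 to -0.64). By set, the summed members had 347, 327, 407, 610 and 456 CPM in Bbs8 KO against 1067, 1333, 899, 886 and 562 CPM in Bbs8 WT, and the highest Bbs8 KO set lay above the lowest Bbs8 WT set. T and B cell-like cells, which hold little of these genes, were 25.4% of Bbs8 KO against 10.7% of Bbs8 WT cells, so the makeup of the cells differed as well.

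Among single genes over all cells, Tagln and Tpm2 were past 2-fold of the 7 members with at least 50 UMIs, both lower in Bbs8 KO. Of the 8776 genes compared, 15.6% were past 2-fold, 1093 of them higher and 278 lower in Bbs8 KO. Tagln had 16.7, 23, 30.1, 27.1 and 17.2 CPM in the Bbs8 KO sets against 167, 110, 43.5, 39.5 and 43.2 CPM in the Bbs8 WT sets, with no overlap, and a log2 ratio of -1.38 (-2.10 to -1.01). Tpm2 had 29.7, 47.8, 25.8, 64.2 and 48.4 CPM in Bbs8 KO against 83.7, 294, 43.5, 92.2 and 130 CPM in Bbs8 WT, with a log2 ratio of -1.41 (-1.91 to -1.11), and its sets overlapped. Tpm1 had 110, 79.6, 159, 168 and 154 CPM in Bbs8 KO against 282, 267, 304, 227 and 202 CPM in Bbs8 WT, so its sets did not overlap, with a log2 ratio of -0.80 (-1.08 to -0.56). Sets that did not overlap between genotypes were seen for 16.4% of all genes compared. The other 4 of the 7 had log2 ratios between -0.98 for Acta2 and -0.68 for Myl9.

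**Figure D4:**
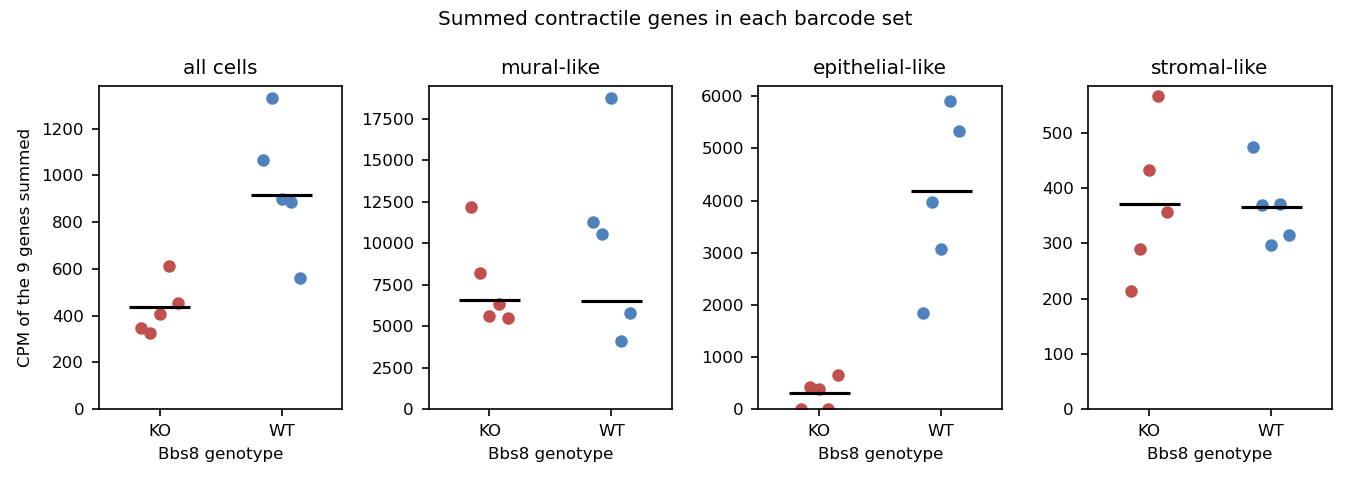
CPM of the 9 genes summed in each barcode set (points) and per mouse (lines), in all cells and in mural-like, epithelial-like and stromal-like (P1-like to P3-like) cells. The epithelial-like sets do not overlap between genotypes (0 to 645 against 1839 to 5904 CPM), whereas those of the other 3 panels do; WT3_p2 and WT3_p3 hold 1 mural-like cell each.

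The stromal classes were examined as a check for myofibroblasts. In P1-like to P3-like cells together, the summed members had 372 CPM (324 to 424) in Bbs8 KO against 365 CPM (293 to 449) in Bbs8 WT, with a log2 ratio of 0.03 (-0.34 to 0.40), and Tpm1 supplied 115 of the 222 Bbs8 KO against 47 of the 89 Bbs8 WT UMIs. Tpm1, the only member with 50 UMIs in these classes, had 192 and 193 CPM, where 6.91% of genes were past 2-fold. Acta2 had 33.5 CPM (20 UMIs) in Bbs8 KO against 24.6 CPM (6 UMIs) in Bbs8 WT. Tagln had 9 UMIs in Bbs8 KO, all in P2-like cells, and 0 in Bbs8 WT, where the limit of 3 counts in P2-like cells, 27 CPM, was close to the 30.4 CPM (13.9 to 57.8) of Bbs8 KO. Each Bbs8 KO set had a Tagln UMI there, so the sets did not overlap, as for 5.45% of the genes compared in stromal cells. At least 3 members were found together in 5 of 1156 Bbs8 KO against 1 of 502 Bbs8 WT cells. The same was found in 44 of 150 mural-like cells, which had more UMIs per cell, so a low count of such cells in sparse data does not show how many cells express these genes.

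By subtype, the interval of the ratio excluded 0 in P1-like cells alone, and differences between subtypes were not tested. In P1-like cells, the summed members had 174 CPM (123 to 240) in Bbs8 KO against 434 CPM (304 to 600) in Bbs8 WT, with a log2 ratio of -1.29 (-2.02 to -0.61), from 37 and 36 UMIs. In P2-like cells they had 507 CPM (429 to 595) and 369 CPM (264 to 500), a log2 ratio of 0.46 (-0.05 to 1.00). In P3-like cells they had 392 CPM (273 to 545) and 242 CPM (125 to 423). The sets of the genotypes overlapped in each subtype. Myh11 had 5 UMIs in Bbs8 WT and 0 in Bbs8 KO P1-like cells, but 0 and 6 in P3-like cells, and Acta2, Tagln, Cnn1 and Des were at 0 in the P3-like cells of both mice. A list of 11 genes known from myofibroblasts and fibrotic matrix, such as Postn, Cthrc1 and Fap, had 5048 CPM (4869 to 5231) in Bbs8 KO against 5033 CPM (4755 to 5322) in Bbs8 WT stromal cells, of which Postn alone gave 3848 and 3995 CPM. By subtype, Postn had 1276 CPM (1128 to 1437) and 2638 CPM (2301 to 3012) in P1-like, 6684 and 6347 CPM in P2-like and 571 CPM (425 to 751) and 989 CPM (731 to 1307) in P3-like cells. The sum therefore says little of the other genes of the list. In P2-like cells, Thbs2 stood at 396 and 243 CPM and Fap at 382 and 414 CPM, both with intervals that overlapped. Tnc stood there at 118 CPM (82.4 to 165) in Bbs8 KO. It was at 0 in Bbs8 WT, as in all other Bbs8 WT cells, so this 0 may stand for a few cells, as for Cnn1.

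The wider contractile list held 50 further genes of the same machinery, of which 43 were in the table. Over all cells, 15.6% of the 8776 genes compared were past 2-fold, 1093 of them higher and 278 lower in Bbs8 KO. The 35 genes of the list with at least 50 UMIs had a median log2 ratio of 0.13, and 3 were past 2-fold, all lower in Bbs8 KO. These were Cald1, which encodes caldesmon of the thin filament, with 256 CPM in Bbs8 KO against 557 CPM in Bbs8 WT, Tead1, a transcription factor, with 24.8 and 62.9 CPM, and Actg1, a non-muscle actin with near-identical copies among which reads can be split, with 17.2 and 60.1 CPM. In stromal cells, 0 of 22 were past 2-fold, against 6.91% of all genes, with Cald1 at 539 and 820 CPM, Tpm4 at 450 and 275 CPM, Flna at 390 and 308 CPM, Csrp2 at 383 and 324 CPM, Myh9 at 613 and 615 CPM, and Actb, the non-muscle beta-actin, at 5598 and 3138 CPM. In mural-like cells, 1 of 5 was past 2-fold, against 10.7% of all genes, namely Flna, which encodes the actin crosslinker filamin A, with 53 and 4 UMIs and a log2 ratio of 1.01 (-0.42 to 2.95). Cald1 stood there at 1154 and 1177 CPM, Myh9, a non-muscle myosin heavy chain, at 1933 and 2717 CPM, Actb at 8913 and 4709 CPM, Tpm4 at 598 and 634 CPM and Ppp1r12a, a subunit of myosin phosphatase, at 431 and 543 CPM. In epithelial-like cells, 1 of 2 was past 2-fold, against 30.9% of all genes, namely Actb. It was higher in Bbs8 KO, as in stromal and mural-like cells, with 6929 CPM in Bbs8 KO against 3184 CPM in Bbs8 WT epithelial-like cells. Csrp1, an actin-binding LIM protein, had 16 UMIs there in Bbs8 WT and 0 in Bbs8 KO, whereas Myh9 had 1168 CPM in Bbs8 KO against 691 CPM in Bbs8 WT, Tagln2 623 and 180 CPM, Flna 234 and 300 CPM, and Ppp1r12a 350 and 240 CPM.

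Among the genes outside both lists whose levels over the 17 classes and clusters were most like those of the summed members were Sncg, Yap1, Mfge8, Inpp5a, Arhgef12, Slc12a2 and Rbpms. Their Pearson correlations ran from 0.863 for Sncg to 0.813 for Rbpms, over 17 classes of unequal depth, and are a description. Mfge8, a secreted glycoprotein of milk fat globules, had 699 CPM in mural-like and 1424 CPM in epithelial-like cells, and Slc12a2, a sodium-potassium-chloride cotransporter, had 229 and 1017 CPM.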

How the data were processed

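For each gene and cell the authors deposited UMI counts, made with dropSeqPipe (STAR) on mm10 after bcl2fastq 2.20, evened for depth and filtered for cells by gene number and mitochondrial share. Cells were grouped by the genotype and set code in their column names, with 0 columns unused, and the set codes matched no single labelled sample. Sets were integrated in Seurat 5.3.0 (2000 features without the members, 30 dimensions, resolution 0.8). A mixed vascular cluster of 535 cells was divided (10 dimensions, resolution 0.3). Clusters were named where a marker list had a mean log2 fold of at least 1 (0.5 for stromal subtypes, with 3 markers). The division and thresholds were set after the clusters were seen, and the members and lists were chosen with earlier results of these data known. UMIs were summed per mouse and class, with exact Poisson and Clopper-Pearson 95% intervals, a limit of 3 counts at 0, and log2 ratios with a pseudocount of 5 CPM and exact conditional intervals of the plain ratio. These steps were tested on simulated data. With 1 mouse per genotype no test was run. Genes with at least 50 UMIs in a class were compared between genotypes. Named were all members, the 6 highest genes of the wider list in each class, those of it past 2-fold, and the 8 genes most like the members with at least 100 UMIs, of which 1 is not reported here. Doublets were kept, since Scrublet (scanpy 1.11.5) marked 25 cells (0.229%). In all, 36 barcodes occurred in more than 1 set. Alternatives covered the features, resolution, cells called from their own markers, TMM (edgeR 4.0.16), DESeq2 1.42.0 size factors, totals without Gm42418 and mitochondrial genes, pseudocounts, cell filters, doublet scores and each set left out.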

Additional observations from a re-analysis of the deposited data

Results flagged for a closer look

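Among 37 groups of 5 barcode sets, 1 held a set that stood apart by Dixon's criterion, where chance alone gives about 1 in 20, or 1.85 here. In Bbs8 KO mural-like cells, Myl9, the regulatory light chain gene, had 2627 CPM in set KO5_p2, from 14 UMIs in 16 cells, and the nearest other set had 1103 CPM. Without any 1 set, the log2 ratio of Myl9 in mural-like cells ran from -0.56 to 0.00. It was 1.16 (-0.05 to 2.68) in cells called from their own markers.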

How the results depend on the processing

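Of 980 values of 57 results under alternatives, 904 stayed within counting error, 75 moved further, and 1 ratio whose interval had excluded 0 changed sign. No paired analysis was possible because the series text names 1 mouse per genotype and the table's columns carry no labelled replicate number. That was Des over all cells, with a log2 ratio of 0.15 without WT4_p2 and as low as -1.19 without another set. Ratios whose intervals included 0 also changed sign, among them those of Acta2, Myh11, Tpm2 and the summed members in mural-like cells.

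The log2 ratio of the summed members over all cells was -0.91 in cells with at least 200 genes, -1.21 with TMM and -1.22 with DESeq2 size factors. In mural-like cells it was 0.53 in cells called from their own markers, -0.41 with the mixed vascular cluster undivided, 0.87 with TMM and 0.72 with DESeq2. In epithelial-like cells it was -2.48 with a naming threshold of 0.5, and in stromal cells 0.43 in cells with at least 200 genes. The undivided cluster and the lower threshold were added after the data were seen. The cause of these moves was not tested.

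Mural-like cells held 40.04% of the Bbs8 KO member UMIs with the members among the clustering features, 28.6% by own markers, 43% with at least 200 genes and 38.8% undivided. For Bbs8 WT they held 18% with the members among the features and 21% undivided. Epithelial-like cells held 1.6% (members among the features) and 7.27% (threshold of 0.5) in Bbs8 KO, and 30.2%, 28.8% (own markers), 32.2% (at least 200 genes) and 36.7% (threshold of 0.5) in Bbs8 WT. Mural-like Bbs8 KO cells had 11935 CPM with the members among the features, 4833 at resolution 1.2, 5899 by own markers and 3492 undivided, and Bbs8 WT cells had 9911, 4704, 4079 and 4650 CPM. Epithelial-like Bbs8 WT cells had 2508 CPM at the threshold of 0.5, and stromal Bbs8 WT cells 279 CPM with at least 200 genes.

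Thinning gave a share of cells with a member UMI of 42.9% in mural-like Bbs8 KO cells, 51.6% in epithelial-like Bbs8 WT cells, and 6.61% and 5.66% in stromal Bbs8 KO and WT cells, as fewer UMIs per cell must. Without the filter on low counts, 2570 genes over all cells, 7932 in mural-like, 5685 in epithelial-like and 3405 in stromal cells were past 2-fold, against 1371, 13, 21 and 194 with it, since genes with few UMIs then entered.

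Leaving out 1 barcode set at a time gave log2 ratios of -1.23 to -0.94 over all cells, -0.72 to 0.35 in mural-like, -4.11 to -3.37 in epithelial-like and -0.15 to 0.17 in stromal cells. Mural-like cells then held 31% to 39.1% of the Bbs8 KO and 7.94% to 13.1% of the Bbs8 WT member UMIs, and epithelial-like cells 0.366% to 0.844% and 19% to 23.6%. Mural-like Bbs8 WT cells ranged from 5143 to 10837 CPM, the latter without WT4_p2.

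The comparisons rest on 24 Bbs8 WT mural-like cells and 1 mouse per genotype, and intervals leave out the spread between mice.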
